A study of Mus musculus with 14 samples.

Results

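The PPAR and RXR nuclear receptors were followed in subcutaneous white adipose tissue of mice that had run voluntarily. They comprise 6 genes, chosen by their platform symbols: the peroxisome proliferator-activated receptors Ppara, Ppard and Pparg and the retinoid X receptors Rxra, Rxrb and Rxrg. These were 6 of the 12945 genes tested. For each gene the brightest probe set, averaged over the 14 arrays, carries the result, and 5 further probe sets served as a check. The samples were 7 arrays of exercised mice, kept in wheel cages for 11 days, and 7 arrays of sedentary mice. All were male C57BL/6 mice aged 12 weeks, with no transgene, deletion or drug named in the labels. C57BL/6 is an inbred laboratory strain. Whether the arrays stand for different mice is not in the labels, and the p-values therefore reflect the scatter among these arrays, part or all of which may be technical.

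PPARs are transcription factors of the nuclear receptor superfamily that are switched on by fatty acids and their derivatives. Each binds DNA as a pair with an RXR, which itself responds to retinoids and related lipids, so the PPARs share a common set of partners. PPARγ, the product of Pparg, is the master regulator of adipocyte formation and lipid storage. PPARα activates genes of fatty acid oxidation, and is abundant in liver, heart, muscle and brown fat. PPARδ is made in many tissues and also promotes fatty acid use.

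Of these receptors only Ppara passed the test. Its signal was about 3.4-fold higher in exercised tissue, while Pparg, Ppard, Rxra and Rxrb had differences close to 0 and Rxrg a small difference that did not pass. The change of Ppara was larger than that of Pparg and that of Ppard by a direct test on the same arrays. Among genes downstream, 17 of 29 tested PPARα targets of fatty acid oxidation and 8 of 24 tested PPARγ targets of adipocytes rose, beside 4.0% of all genes. With the mean of skeletal muscle markers in the fit these counts were 13 and 2, beside 1.38% of all genes. Of 8 RXR partners and 9 corepressors tested 0 passed, beside 5.53% of all genes. These lists are too small for that count to set them apart.

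The labelled tissue was checked first. Adipoq, which encodes the fat cell hormone adiponectin, had signals between 55513.8 and 69118.5 on exercised arrays and between 48832.5 and 68456.5 on sedentary arrays. Sedentary array 5 stood apart. Its mean log2 level of 13 mature adipocyte markers was 13.39, against 14.12 to 14.62 on the other sedentary arrays, and its macrophage mean of 13.70 was the highest of the 14 arrays. Its mean over 13 lymphocyte markers, 12.85, was also the highest of the 14, and its endothelial mean, 11.28, the lowest. Lymphocyte means ran from 8.93 to 12.1 on exercised and from 9.06 to 12.85 on sedentary arrays. Skeletal muscle markers varied widely, with means over 24 markers from 9.08 to 14.93 on exercised arrays and from 8.82 to 12.96 on sedentary arrays. Of the 24, 0 passed the test and 17 had an unadjusted p under 0.05, beside 5.53% and 21.8% of all genes. With 24 genes the count of 0 is too small to set the list apart. The difference was positive for all 24, with a median of 2.64. Ckm, muscle creatine kinase, had a lowest signal of 479.8 on exercised and 295.8 on sedentary arrays. The log2 ratio of the Gapdh 3' to 5' control probe sets, a measure of RNA integrity, lay between -0.49 and -0.34 on exercised arrays and between -0.53 and -0.33 on sedentary arrays. In bulk tissue, fewer cells of a type and less RNA per cell cannot be told apart.

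The genes set against each other are Ppara, Ppard and Pparg, and the windows at their starts are shown so that their base composition and motif letters can be compared. RefSeq sequences of the mouse build GRCm38.p6, running from 250 bases before to 50 bases after a gene's start, matched 6 of the 6 receptor genes with 11 windows. The letters AGGTCA, the half-site that PPAR and RXR bind, are in capitals, and were searched on both strands.
Ppara, chr15:85735526-85735825, plus strand: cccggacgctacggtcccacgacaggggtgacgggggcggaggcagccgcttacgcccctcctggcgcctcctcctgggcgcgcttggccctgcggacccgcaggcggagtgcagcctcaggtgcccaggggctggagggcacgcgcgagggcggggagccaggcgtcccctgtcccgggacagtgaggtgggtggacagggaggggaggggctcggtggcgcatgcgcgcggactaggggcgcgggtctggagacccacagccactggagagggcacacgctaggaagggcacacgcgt
Ppard, chr17:28232504-28232803, plus strand: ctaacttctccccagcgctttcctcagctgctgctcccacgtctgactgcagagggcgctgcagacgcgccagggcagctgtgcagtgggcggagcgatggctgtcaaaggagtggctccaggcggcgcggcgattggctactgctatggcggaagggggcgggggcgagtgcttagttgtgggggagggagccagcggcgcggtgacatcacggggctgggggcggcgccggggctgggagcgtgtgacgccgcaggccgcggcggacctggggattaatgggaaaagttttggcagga
Pparg, most upstream start, chr6:115360894-115361193, plus strand: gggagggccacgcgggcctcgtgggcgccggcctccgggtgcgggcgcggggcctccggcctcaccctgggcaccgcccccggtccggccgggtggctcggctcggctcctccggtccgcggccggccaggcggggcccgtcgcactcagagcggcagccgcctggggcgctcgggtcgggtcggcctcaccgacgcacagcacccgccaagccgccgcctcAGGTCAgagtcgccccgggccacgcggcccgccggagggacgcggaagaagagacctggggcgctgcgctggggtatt
Pparg, most downstream start, chr6:115421816-115422115, plus strand: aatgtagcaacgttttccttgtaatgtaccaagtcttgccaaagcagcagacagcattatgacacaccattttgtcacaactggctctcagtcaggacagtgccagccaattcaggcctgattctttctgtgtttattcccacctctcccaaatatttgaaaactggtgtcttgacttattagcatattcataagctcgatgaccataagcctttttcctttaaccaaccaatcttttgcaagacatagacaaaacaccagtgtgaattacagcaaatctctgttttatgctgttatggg

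The Ppara window held 74.7% G and C and 30 CG pairs, the Ppard window 68.3% and 27. The upstream Pparg window held 80.3% and 44 CG pairs, and the downstream one 40.3% and 2, against a median of 52.7% over all 32851 windows. The half-site AGGTCA stood 28 bases before the upstream start of Pparg and was not among the letters of the Ppara, Ppard and downstream Pparg windows. Among receptor windows not printed, it stood 9 bases before a further Pparg start, 87 and 48 bases before an Rxra start and 88 bases before an Rxrg start. It was found in 16.3% of all windows. The full PPAR-RXR motif AGGTCANAGGTCA, which contains that half-site, the E-box CACGTG bound by clock factors and the D-box TTATGTAA bound by Dbp and its relatives matched none of the 11 receptor windows. They matched 0.0396%, 7.15% and 0.938% of all windows.

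Ppara encodes the receptor that turns on fatty acid oxidation. Its MAS5 signals, in linear units that are comparable between arrays of the same probe set, were 4032.0, 1821.9, 4011.3, 3196.3, 4629.6, 2436.1 and 4956.6 on exercised arrays 1 to 7. On sedentary arrays 1 to 7 they were 985.5, 1141.2, 1217.5, 933.7, 451.5, 1239.6 and 1127.8. All exercised arrays lay above all sedentary arrays, with exercised arrays 2 and 6 the lowest of their group and sedentary array 5 the lowest of all. The means were 3583 ± 1150 in exercised and 1014 ± 272 in sedentary tissue (SD, n = 7 each). On the scale log2(signal + 46.7), Ppara rose by 1.76 (SE 0.24, 95% interval 1.24 to 2.27, limma adjusted p = 0.00168), a 3.38-fold change (2.37 to 4.84). Of the 12945 genes tested 5.53% passed at an adjusted p under 0.05 (716 genes), 4.0% as higher (518 genes), and 2.68% had groups that did not overlap (1.95% with exercised higher). Among the 6 receptor genes 1 passed and 1, the same gene, had groups without overlap. With 6 genes these counts are too small to set the family apart from that background. Only 58 of all genes had a larger positive difference than Ppara.

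**Figure D1:**
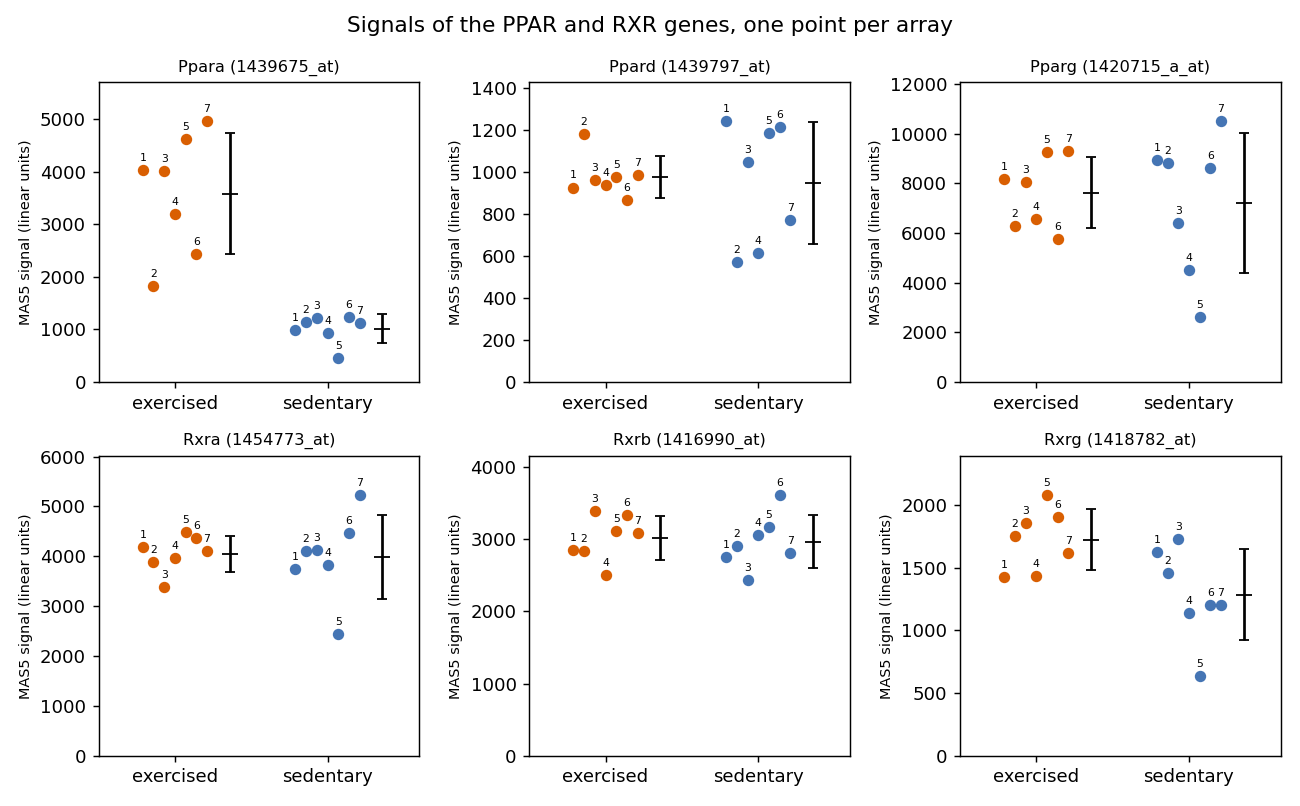
Signals of the main probe set of each receptor gene (vertical axis, linear MAS5 units from 0) on exercised arrays (orange, left) and sedentary arrays (blue, right). Numbers are replicate numbers, and bars show mean ± SD of 7 arrays. Ppara is the panel without overlap between groups, and sedentary array 5 is the lowest array in the panels of Ppara, Pparg, Rxra and Rxrg.

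The other probe sets of Ppara moved the same way. Probe set 1457721_at had signals of 1419.9 to 4981.6 (median 3956.4) on exercised and 419.0 to 1125.9 (median 762.1) on sedentary arrays, a difference of 2.11 (SE 0.25, limma adjusted p = 0.00078). Probe set 1449051_at had 495.4 to 2585.3 (median 1727.0) on exercised and 42.9 to 640.1 (median 242.5) on sedentary arrays, a difference of 2.26 (SE 0.46, limma adjusted p = 0.0125). These p-values come from a fit over all 27027 probe sets past the signal filter, in which 3.83% passed. The groups did not overlap in the first of these, and in the second 5 of 7 exercised arrays exceeded every sedentary array. In all 3 probe sets of Ppara, exercised arrays 2 and 6 were the 2 lowest of their group and sedentary array 5 the lowest of its group.

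Skeletal muscle also makes Ppara, so its signal was set beside the muscle markers array by array. Exercised arrays 4 and 1, with the lowest muscle means of their group at 9.08 and 9.43, had Ppara signals of 3196.3 and 4032.0. The lowest Ppara signals of the exercised group came from arrays 6 and 2, whose muscle means were 14.93 and 13.84, but array 3, with a muscle mean of 14.73, had 4011.3. Sedentary array 3, whose muscle mean of 12.96 was the highest of its group, had a Ppara signal of 1217.5. With the muscle mean as a covariate Ppara differed by 1.80 (SE 0.29, limma adjusted p = 0.0113), and without sedentary array 5 by 1.59 (SE 0.20, limma adjusted p = 0.00127). Means of the 13 brown and beige fat markers were 11.19 to 12.12 on exercised and 8.50 to 11.12 on sedentary arrays, without overlap. With that mean as a covariate, chosen after the data were seen, Ppara differed by 1.45 (SE 0.39, limma adjusted p = 0.243), and 2 genes of all tested passed. Exercised arrays 5 and 7, with the lowest lymphocyte means of their group (8.93 and 9.82), had Ppara signals of 4629.6 and 4956.6. Exercised array 4, with the highest (12.1), had 3196.3. Sedentary array 5, with the highest lymphocyte mean of its group (12.85), had 451.5, and sedentary array 7, with the lowest (9.06), had 1127.8. The parts of muscle, of lymphocytes and of brown or beige fat cells in the difference were not tested.

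**Figure D2:**
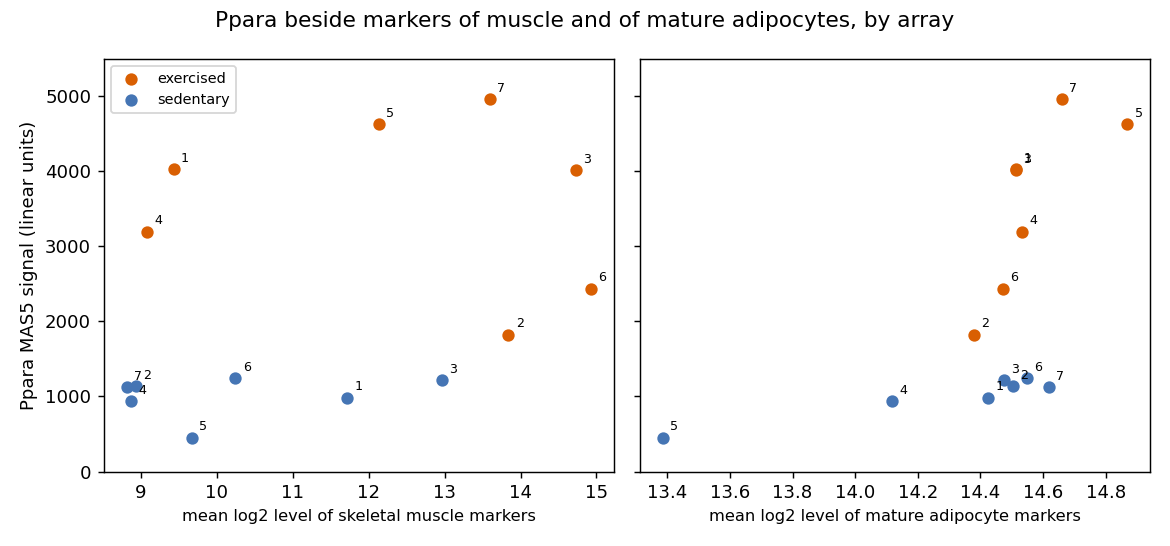
Ppara signal (vertical axis, linear MAS5 units) against the mean log2 level of 24 skeletal muscle markers (left) and 13 mature adipocyte markers (right), one point per array, with replicate numbers. Exercised arrays (orange) 1 and 4 lie above all sedentary arrays (blue) at muscle means of 9.43 and 9.08, and sedentary array 5 lies apart at an adipocyte mean of 13.39.

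Pparg, the regulator of fat cell identity, did not pass the test. Its signals ran from 5751.4 to 9309.4 on exercised arrays (median 8040.6) and from 2617.7 to 10497.1 on sedentary arrays (median 8614.3). The groups overlapped throughout, and 2 of 7 exercised arrays exceeded the sedentary median. The means were 7631 ± 1439 in exercised and 7199 ± 2813 in sedentary tissue (SD, n = 7 each). The difference was 0.19 (SE 0.26, 95% interval -0.36 to 0.74, limma adjusted p = 0.701), so that a fold between 0.778 and 1.67 lies within the interval. Sedentary arrays 5 and 4 were lowest at 2617.7 and 4493.5. Without sedentary array 5 the difference was -0.03 (SE 0.18, limma adjusted p = 0.94), a change of sign. The array has 1 probe set named for Pparg alone, so its isoforms were not separated.

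Ppard, the broadly made PPAR, had signals from 865.6 to 1181.7 on exercised arrays (median 960.6) and from 571.5 to 1239.5 on sedentary arrays (median 1047.8). The exercised values lay inside the range of the sedentary ones. The difference was 0.09 (SE 0.17, 95% interval -0.27 to 0.45, limma adjusted p = 0.786), within folds of 0.828 and 1.37. It was -0.06 (SE 0.19) when the muscle marker mean entered the fit and -0.01 (SE 0.15) without sedentary array 2, both with the sign turned. A further Ppard probe set, 1425703_at, fell under the signal filter with signals of 15.9 to 25.6 over all arrays, and differed by 0.05 (SE 0.08).

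The unequal change of the PPARs was then tested on the same arrays, by subtracting the log2 value of Pparg or of Ppard from that of Ppara. Such a difference between probe sets carries no meaning as a level, but its shift between groups measures unequal change. The quantity Ppara minus Pparg was -1.13 ± 0.30 on exercised and -2.70 ± 0.38 on sedentary arrays (SD, n = 7 each). It ranged from -1.76 to -0.90 on exercised and from -3.17 to -2.21 on sedentary arrays, without overlap. The shift was 1.57 (SE 0.18, two-sided exact permutation p = 0.000583, the smallest the 3432 assignments can give, adjusted p = 0.00117 over 2 contrasts). Exercised array 2 was nearest to the sedentary arrays.

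The quantity Ppara minus Ppard was 1.76 ± 0.58 on exercised and 0.09 ± 0.74 on sedentary arrays (SD, n = 7 each). It ranged from 0.61 to 2.28 on exercised and from -1.31 to 0.94 on sedentary arrays. Exercised array 2 lay inside the sedentary range, and the other exercised arrays lay above it. The shift was 1.67 (SE 0.36, two-sided exact permutation p = 0.00117, adjusted p = 0.00117 over 2 contrasts). With the other probe sets, normalisations and pseudocounts, and with arrays left out, the shift against Pparg stayed between 1.43 and 2.07 and that against Ppard between 1.43 and 2.17.

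**Figure D3:**
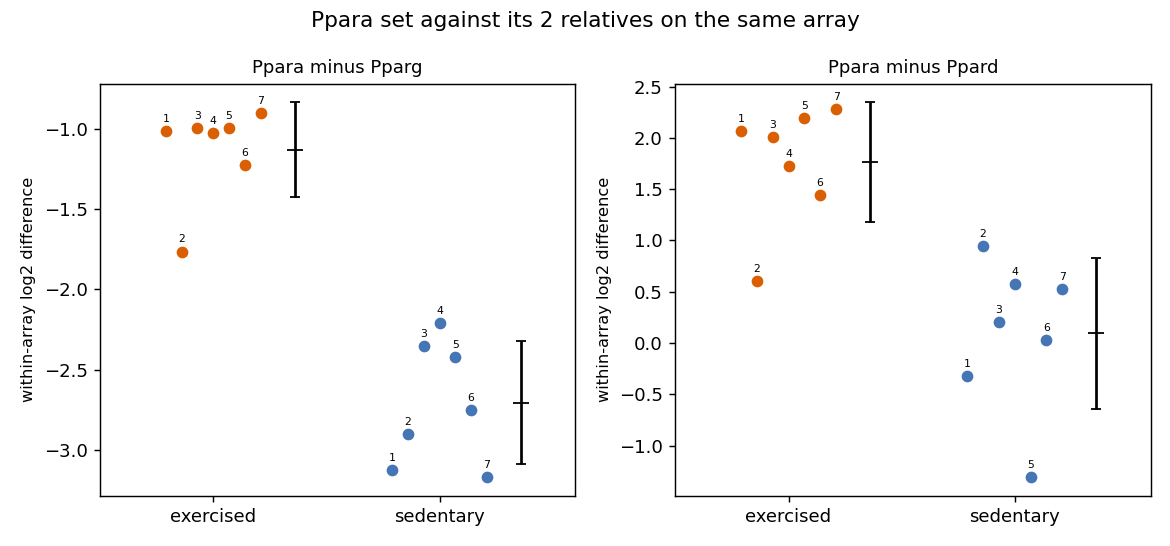
Within-array log2 difference of Ppara minus Pparg (left) and Ppara minus Ppard (right), one point per array with its replicate number, exercised in orange and sedentary in blue. Bars show mean ± SD of 7 arrays. The groups do not overlap against Pparg, and exercised array 2, at 0.61, lies inside the sedentary range against Ppard.

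Among the RXR partners Rxrg, the isoform found mainly in muscle and brain, had the largest difference. Its signals were 1425.8 to 2080.3 on exercised arrays (median 1757.8) and 634.3 to 1729.5 on sedentary arrays (median 1205.8). All exercised arrays exceeded the sedentary median and 4 of 7 exceeded every sedentary array. The means were 1724 ± 246 in exercised and 1285 ± 365 in sedentary tissue (SD, n = 7 each). The difference of 0.46 (SE 0.18, 95% interval 0.08 to 0.83) had a limma adjusted p = 0.151. Its unadjusted p was under 0.05, as for 21.8% of all genes. It was 0.30 (SE 0.12, limma adjusted p = 0.172) without sedentary array 5, and 0.25 (SE 0.19, limma adjusted p = 0.59) with the muscle markers as a covariate. With the adipocyte marker mean in the fit it was 0.23 (SE 0.13), and with the macrophage marker mean 0.13 (SE 0.15, limma adjusted p = 0.755).

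Rxra, an RXR abundant in liver and fat, had signals of 3383.7 to 4486.3 on exercised arrays (median 4098.0) and of 2447.2 to 5225.9 on sedentary arrays (median 4096.0). The exercised values lay inside the sedentary range. The difference was 0.05 (SE 0.13, 95% interval -0.23 to 0.32, limma adjusted p = 0.856). Without sedentary array 5 it was -0.06 (SE 0.09). Another probe set past the filter, 1425762_a_at, differed by -0.10 (SE 0.13), and one under the filter, 1430497_at, by -0.11 (SE 0.13), so the sign is not settled. Rxrb, the most evenly distributed RXR, had signals of 2502.3 to 3388.0 on exercised (median 3088.8) and 2434.3 to 3611.4 on sedentary arrays (median 2910.2). It differed by 0.03 (SE 0.09, 95% interval -0.17 to 0.22, limma adjusted p = 0.884), the narrowest interval of the receptor genes' main probe sets, and folds from 0.891 to 1.17 lie within it. Without sedentary array 3 it was -0.02 (SE 0.09).

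**Figure D4:**
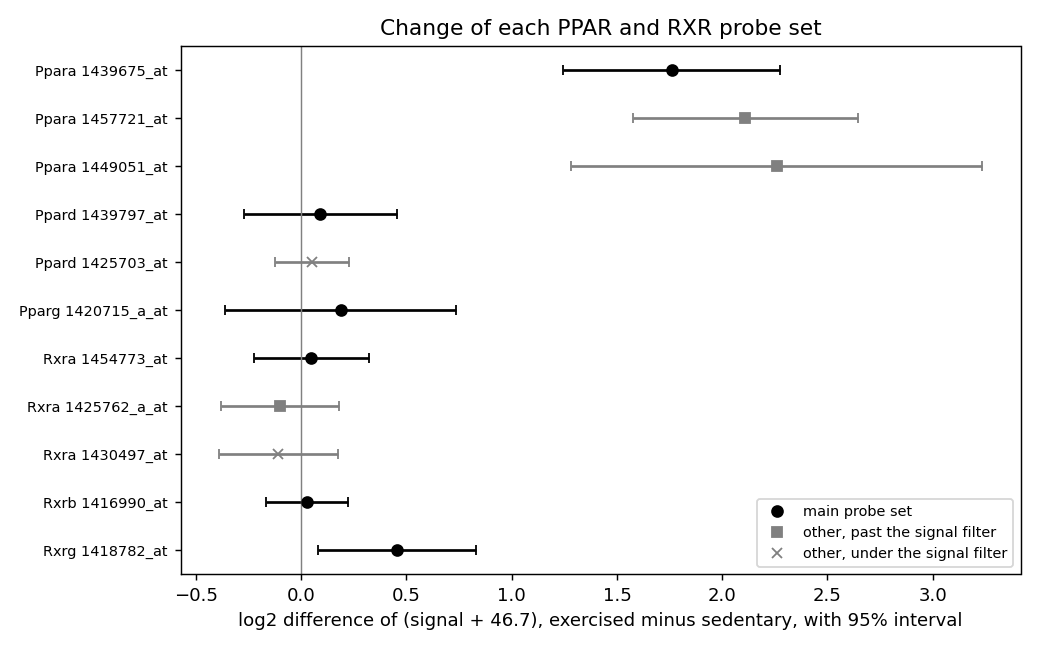
Log2 difference of signal + 46.7, exercised minus sedentary (horizontal axis), with 95% intervals from limma for all 11 probe sets of the receptor genes. Circles are main probe sets, squares and crosses other probe sets past and under the signal filter. All 3 Ppara intervals lie above 1.2, and the upper ends of all others are at or below 0.83.

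Variation within groups was smaller in exercised than in sedentary tissue for most receptors. The coefficient of variation of Pparg was 18.9% on exercised and 39.1% on sedentary arrays, that of Rxra 8.96% and 21.1%, that of Rxrg 14.2% and 28.4%, and that of Ppard 10.2% and 30.6%. Rxrb had 10.3% on exercised and 12.4% on sedentary arrays, and Ppara 32.1% and 26.9%. Sedentary array 5 was the lowest array for Pparg, Rxra and Rxrg. The smaller spread was not particular to the receptors. SDs of marker means were 0.16 on exercised and 0.43 on sedentary arrays for mature adipocytes, and 0.15 and 0.38 for macrophages. They were 0.08 and 0.27 for endothelial cells, 0.18 and 0.33 for progenitors, and 0.31 and 0.84 for brown and beige fat. Lymphocytes had 1.22 and 1.24, and skeletal muscle went the other way, with 2.42 and 1.61. These spreads were not tested.

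The genes whose deviations from the group mean followed each receptor most closely were taken as a description over 14 arrays, which share sedentary array 5. Ppara was most like Ffar4, a receptor for long-chain fatty acids (Pearson's r 0.958), Abcd3, a peroxisomal carrier of fatty acyl groups (0.957), and Atp5b, the catalytic subunit of ATP synthase (0.950). Of these Abcd3 rose by 0.78 (SE 0.15, limma adjusted p = 0.00849) and Atp5b by 0.33 (SE 0.08, limma adjusted p = 0.0305), while Ffar4 differed by 0.52 (SE 0.23, limma adjusted p = 0.205). Pparg was most like Ech1, an enzyme of fatty acid oxidation (0.967), the amino acid transporter Slc1a5 (0.960) and the G protein subunit Gna11 (0.959). Those nearest to Ppard were Pitpnm2, Srp9 and Rbms1 (0.852 to 0.783), to Rxra Dok7, Gpld1 and Id4 (0.950 to 0.948), to Rxrb Rprd1a, Ackr2 and Msantd2 (0.860 to 0.822), and to Rxrg Paqr9, 4833439L19Rik and Setd7 (0.937 to 0.929). Between receptors the closest pair was Ppara and Pparg (0.784), which was 0.590 without sedentary array 5. The pair of Pparg and Rxra had 0.765, and 0.375 without that array.

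Genes that PPARα is known to activate in fatty acid oxidation came next, from a list of 37, of which 29 passed the signal filter. Of the 29 tested, 17 rose and 0 fell by limma, beside 4.0% higher and 1.53% lower among all genes, and their median difference was 0.75 against -0.03 for all genes. In 14 of the 29 the groups did not overlap, beside 2.68% of all genes (1.95% with exercised higher). Pdk4, a kinase that shuts off pyruvate dehydrogenase and so spares glucose, had signals of 12724.1 to 39662.6 (median 27868.3) on exercised and 2733.8 to 9520.7 (median 6234.4) on sedentary arrays. It rose by 1.99 (SE 0.28, limma adjusted p = 0.00171). Slc25a20, the carrier that brings acylcarnitines into mitochondria, had 11090.4 to 21879.3 (median 17723.4) on exercised and 4908.8 to 9119.8 (median 6511.1) on sedentary arrays, and rose by 1.26 (SE 0.16, limma adjusted p = 0.00143). The groups did not overlap for either gene.

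Hadhb, a subunit of the mitochondrial trifunctional protein, rose by 0.78 (SE 0.11, limma adjusted p = 0.002). Its further probe sets gave 0.89 (SE 0.14, limma adjusted p = 0.0034) and 0.17 (SE 0.15, limma adjusted p = 0.547). Fabp3, a fatty acid binding protein of heart, muscle and brown fat, rose by 4.08 (SE 0.48, limma adjusted p = 0.000744), but a further Fabp3 probe set gave 0.30 (SE 0.20, limma adjusted p = 0.422). Ehhadh and the genes that follow here were chosen with their values in view. Ehhadh, the bifunctional enzyme of peroxisomal oxidation, rose by 1.35 (SE 0.21), and Cpt2 by 0.94 (SE 0.15). The peroxisomal genes Acaa1b (0.80, SE 0.37), Acaa1a (0.45, SE 0.14), Hsd17b4 (0.41, SE 0.13) and Pex11a (0.36, SE 0.16) did not pass. Cpt1a, which loads fatty acids onto carnitine and is a well-known PPARα target in liver, had 3681.3 to 5456.5 (median 4194.3) on exercised and 3274.9 to 5754.8 (median 4317.1) on sedentary arrays, a difference of 0.01 (SE 0.12).

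Once the muscle mean entered the fit, 13 of these 29 genes rose, where 1.38% of all genes did, and without sedentary array 5, 18 did, where 3.84% did. In the promoter windows of the 25 of these genes that have one, AGGTCANAGGTCA had no match. Of all genes with a window 0.0481% had a match, so its absence from 25 genes carries little information. AGGTCA was found in 6 (24.0%), against 18.1% of all genes with a window. Those 6 include Acadm, Acadvl, Slc27a2 and Ucp3, which rose, and Cpt1a and Creb3l3, which did not pass. A match of letters shows no binding.

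Of 29 adipocyte genes known as PPARγ targets 24 were tested, and 8 rose and 0 fell by limma, beside 4.0% higher and 1.53% lower among all genes, with a median difference of 0.49. All 24 differences were positive. The mean of 13 mature adipocyte markers was 14.56 ± 0.16 on exercised and 14.30 ± 0.43 on sedentary arrays (SD, n = 7 each). That mean is no separate reading, since Adipoq, Fabp4, Plin4, Cidec, Lipe, Pnpla2, Retn, Aqp7, Gpd1 and Slc2a4 stand in both lists. Of the 13 markers 12 had a positive difference, while Lep had -1.41 (SE 0.48, limma adjusted p = 0.105). The mean of 16 macrophage markers was 12.69 ± 0.15 on exercised and 13.05 ± 0.38 on sedentary arrays. Of the 16 macrophage markers 16 had a negative difference (median -0.34), and 1 passed, beside 1.53% lower among all genes. The part of fat cell and macrophage content in the change of the adipocyte genes was not tested. Slc27a1, which takes up fatty acids, had 12234.7 to 19981.6 (median 15761.3) on exercised and 5546.1 to 11476.4 (median 7509.0) on sedentary arrays, without overlap, and rose by 0.98 (SE 0.16, limma adjusted p = 0.00309). Fabp5 rose by 0.49 (SE 0.08), and Gpd1, which makes glycerol phosphate for triglycerides, by 1.0015 (SE 0.21). Further Gpd1 probe sets differed by 1.28 (SE 0.25) and 0.02 (SE 0.13). Dgat1, which completes triglycerides, rose by 0.68 (SE 0.16, limma adjusted p = 0.0253), with another probe set at -0.01 (SE 0.17). With the muscle mean in the fit 2 of the 24 rose (1.38% of all genes). Without sedentary array 5, the lowest in adipocyte markers, 10 did (3.84% of all genes). Adipoq, Fabp4 and Cd36, abundant products of fat cells picked after their values were seen, differed by 0.06 (SE 0.08), 0.10 (SE 0.06) and 0.09 (SE 0.09). The difference between this list and that of PPARα was not tested.

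Targets that answer to several PPARs, including PPARδ, numbered 12, with 9 tested. Of these 6 rose and 0 fell, beside 4.0% higher and 1.53% lower among all genes, with a median difference of 0.75, and 4 of the 9 (Pdk4, Acadvl, Ucp3 and Cpt1a) also stand in the PPARα list. Acadvl, a dehydrogenase of very long fatty acids, rose by 1.05 (SE 0.17, limma adjusted p = 0.00304). Plin5, a droplet protein that ties lipid to mitochondria, had 2332.9 to 6377.7 (median 3556.0) on exercised and 928.4 to 2462.4 (median 1590.2) on sedentary arrays, and rose by 1.27 (SE 0.22, limma adjusted p = 0.0048). Ucp3, a mitochondrial protein of muscle and brown fat, rose by 0.75 (SE 0.17). Angptl4, an inhibitor of lipoprotein lipase that PPARs induce, had 13012.5 to 23617.0 (median 17782.2) on exercised and 12587.3 to 23102.5 (median 18176.5) on sedentary arrays. It differed by -0.02 (SE 0.15) and was picked after its values were seen. With the muscle mean in the fit 3 of the 9 rose (1.38% of all genes).

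**Figure D5:**
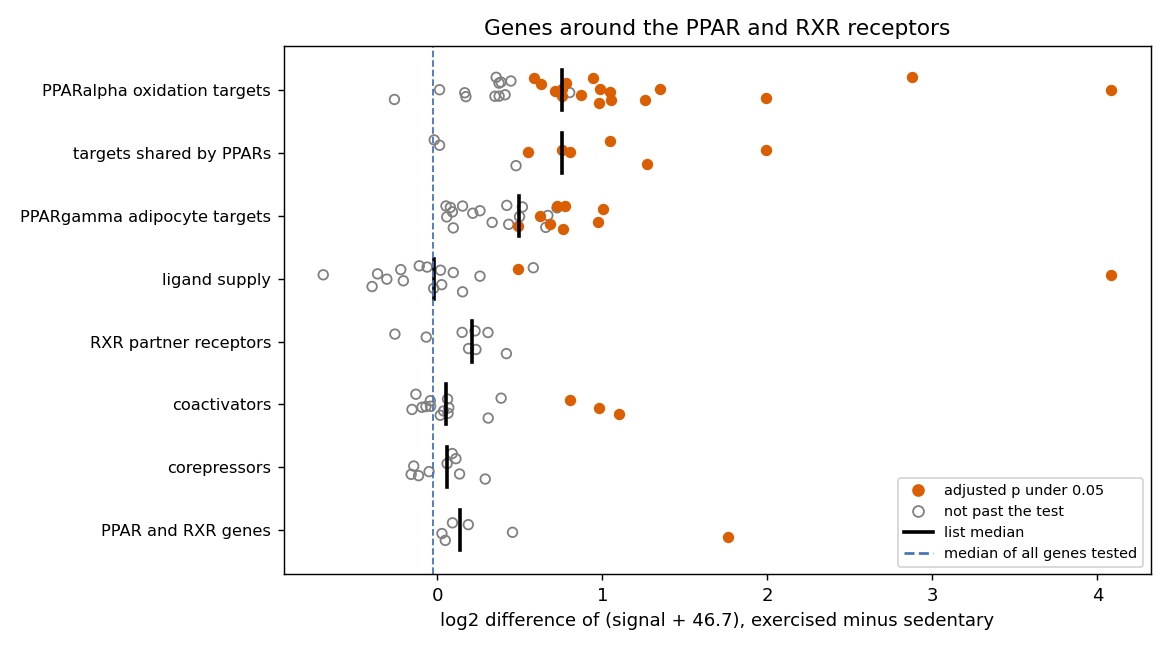
Log2 difference, exercised minus sedentary, of each tested gene in 7 lists around the receptors and of the receptors themselves (bottom). Filled points passed at an adjusted p under 0.05, open points did not, black bars are list medians, and the dashed line is the median of all genes at -0.03. Filled points number 17 of 29 among PPARα oxidation targets, 0 of 8 among RXR partner receptors and 0 of 9 among corepressors, beside 5.53% of all genes.

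Other receptors that pair with RXR did not pass. Of 13 listed 8 were tested, with a median difference of 0.21. Of the 8, 0 passed by limma and 2 had an unadjusted p under 0.05, beside 5.53% and 21.8% of all genes. With 8 genes these counts are too small to set the list apart from all genes. Nr1h3, the liver X receptor of lipid metabolism, differed by 0.23 (SE 0.09, limma adjusted p = 0.138), and Nr4a1, an early-response receptor, by 0.42 (SE 0.18, limma adjusted p = 0.177). By the exact permutation test adjusted over all genes neither passed.

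Of 16 coactivators, proteins that PPARs recruit to switch on genes, 3 rose and 0 fell (18.8% against 5.53% of all genes), with a median of 0.05. The 3 were Ppargc1a and Ppargc1b, the PGC-1 coactivators of mitochondrial genes, and Lpin1, a lipid phosphatase that also binds PPARα in liver. Ppargc1a had 1138.6 to 4331.1 (median 2989.2) on exercised and 589.4 to 1714.1 (median 1325.3) on sedentary arrays, and rose by 1.10 (SE 0.28, limma adjusted p = 0.0307). Ppargc1b rose by 0.98 (SE 0.21, limma adjusted p = 0.0141), and Lpin1 by 0.81 (SE 0.20, limma adjusted p = 0.033). Of 33 alternatives 20 kept the call of Ppargc1a and 20 that of Lpin1, and a further Lpin1 probe set gave 0.66 (SE 0.22, limma adjusted p = 0.114). Further Ppargc1a probe sets gave 1.51, 1.21, 0.74 and 1.11 (limma adjusted p from 0.00524 to 0.0262). With the muscle mean in the fit 0 of the 16 passed, where 1.38% of all genes rose. With 16 genes that count is too small to set the list apart. The general coactivators Ncoa1, Ncoa2, Crebbp and Med1, picked after their values were seen, differed by 0.06, 0.06, 0.02 and -0.07 (SE 0.09 to 0.10). Their further probe sets gave 0.05 for Ncoa1, -0.03 and -0.53 for Ncoa2, -0.25 and -0.32 for Crebbp, and -0.29 and -0.15 for Med1.

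Corepressors hold receptors without ligand inactive. Of 13 listed 9 were tested, with a median of 0.06. Of the 9, 0 passed by limma and 1 had an unadjusted p under 0.05, beside 5.53% and 21.8% of all genes. With 9 genes these counts are too small to set the list apart from all genes. Nr2f6, an orphan receptor, differed by 0.29 (SE 0.09, limma adjusted p = 0.0711), and Tbl1xr1, a subunit of the NCoR complex, by -0.14 (SE 0.08, limma adjusted p = 0.306). Of 26 genes of ligand supply 17 were tested, with a median of -0.02. Of these 2 rose (11.8%) and 0 fell, beside 4.0% higher and 1.53% lower among all genes. The 2 were the fatty acid binding proteins Fabp3 and Fabp5 given above, which also stand in the target lists. The retinoid enzymes Aldh1a1 and Dhrs3, picked after their values were seen, differed by -0.40 (SE 0.24) and -0.31 (SE 0.13), and neither passed.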

How the data were processed

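Messenger RNA of subcutaneous fat was measured on Affymetrix arrays, with biotinylated cRNA made from column-purified total RNA, per the labels. For each of 14 arrays the authors deposited intensity on a linear scale for 45101 probe sets. The submitters' processing notes name MAS5, with a version and settings not given in the sources used here. Every array had a mean of 1500 after trimming 2% at both ends, so differences in total RNA per cell are removed, and array medians ran from 531.3 to 617.4. The number of arrays, 7 per group, limits precision.

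Groups and replicate numbers came from the titles. Probe sets were named by the platform annotation, with symbols updated through the GRCm38.p6 gene table (34741 of 34945 matched by identifier). Control probe sets and those with several or no symbols were left out, as was 1 named for Ppard and another gene. Values became log2(signal + 46.7), the 10th percentile, and probe sets with a mean under 389.7, the 40th percentile, were left out. Of several probe sets for a gene the brightest on average was used. The comparison ran in R 4.3.3 with limma 3.58.1 (lmFit, then eBayes with a variance trend), two-sided. Adjusted p-values are Benjamini-Hochberg values across 12945 genes, with a threshold of 0.05. Contrasts used exact permutation over 3432 assignments. The members, lists and tests were chosen with earlier results of these data known. Gene lists were described by counts and medians, and no list was tested.

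Genes were named by rule: the receptors with all probe sets, up to 4 called genes with the smallest p in each list (or 2 where none passed), and the 3 genes most like each receptor. The fit was tested on simulated data of 12945 genes, drawn independently of each other, 200 of them changed. There 47% of log2 changes of 0.5 and 83% of those of 1 were recovered, and 5.11% of calls were false. Real genes share deviations of an array, so these shares may differ in the measured data. Alternatives were other normalisations, pseudocounts, filters, probe sets, variance settings, covariates, the replicate number as a block, an exact permutation test and arrays left out.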

Additional observations from a re-analysis of the deposited data

Results flagged for a closer look

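In groups of 7 arrays, the gap of the highest or lowest array to its neighbour was set against the group's range. Of 80 groups 14 had an array far from the others, where about 1 in 20 independent groups with normal scatter would be flagged. These groups share the same 14 arrays, so the count does not measure an excess over that rate. Among the receptors, Ppara on sedentary array 5 had a log2 level of 8.96, against 9.94 to 10.33 on the other sedentary arrays, a gap of 0.714 of the range. Rxrg on the same array had 9.41 against 10.21 to 10.80 (0.579). Ppard on exercised array 2 had 10.26 against 9.83 to 10.01 on the other exercised arrays (0.593), and the quantity Ppara minus Pparg on that array was -1.76 against -1.22 to -0.90 (0.628).

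Sedentary array 5 was also lowest and apart for Dgat1 (0.575), Acadvl (0.657), Ucp3 (0.609), Lpin1 (0.644) and the mature adipocyte mean (0.593). Sedentary array 7 was apart and low for the means of brown and beige (0.604), lymphocyte (0.652) and progenitor markers (0.705). Fabp3 on sedentary array 1 was high (0.577), and Arntl on sedentary array 6 was low (0.590).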

How the results depend on the processing

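Ppara kept its direction under all 35 alternatives, with differences of 1.43 to 2.26, and passed in 34. The exception was the brown and beige marker mean as a covariate (1.45, adjusted p = 0.243), where 2 genes of all passed. The contrasts against Pparg and Ppard kept direction and call under the 24 and 25 alternatives run, which were normalisations, pseudocounts, probe sets, the block and arrays left out; no marker or Gapdh covariate was run for them. The other receptors passed under none, and Rxrg ran from 0.127 (macrophage covariate) to 0.534. Signs turned for Ppard with the muscle covariate (-0.0571), with the brown and beige covariate (-0.0185) and without sedentary array 2 (-0.0134, arrays left out in turn -0.0134 to 0.163). They turned for Pparg with array weights (-0.0006) and with adipocyte (-0.22) or macrophage markers (-0.29) as covariates and without sedentary array 5 (-0.0322, arrays left out in turn -0.0322 to 0.299). Rxra turned with the mean of its probe sets (-0.0264), array weights (-0.0275), adipocyte (-0.13) and macrophage covariates (-0.17), without sedentary arrays 5 and 7 (-0.0018), and in probe sets 1425762_a_at (-0.10) and 1430497_at (-0.11), and over arrays left out in turn ran from -0.0629 (sedentary 5) to 0.117. Rxrb turned with the muscle (-0.0141) and Gapdh ratio covariates (-0.0204), and over arrays left out in turn ran from -0.0177 (sedentary 3) to 0.0757. The causes were not tested. Of all genes 716 passed, against 161 with the replicate number as a block, 218, 333 and 396 with the muscle, macrophage and Gapdh ratio covariates, and 402 to 853 with an array left out (402, 410, 412, 424 and 477 without exercised arrays 7, 3, 5, 1 and 6). Same-numbered arrays deviated together (correlation over 0.1) in 3 of 7 pairs, and 3 of 7 exercised arrays correlated best with their own number. These values do not decide whether the numbers are pairs. The titles name no pairing, and the main fit took none. With the block Ppara differed by 1.76 (limma adjusted p = 0.0324). The 22 genes named from lists kept their direction in all 725 values, and 59 of these lost their call.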

Other observations

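Genes of the circadian clock, several of which regulate Ppara in mouse liver, were also read. The 18 such genes tested included 9 that limma called higher in exercised tissue and 3 called lower, beside 4.0% and 1.53% of all genes. With the skeletal muscle mean in the fit the counts were 5 higher and 2 lower. In that fit 218 of all 12945 genes passed in either direction, and 1.38% passed as higher. Dbp, an output factor of the clock, rose by 2.76 (SE 0.28, limma adjusted p = 0.000545), and Nr1d2, a repressor receptor, by 1.57 (SE 0.20, limma adjusted p = 0.00143). Npas2 and Arntl, activators of the clock, fell by 1.87 (SE 0.28) and 1.28 (SE 0.20), with another probe set of Arntl at -0.38 (SE 0.16, limma adjusted p = 0.195). The labels used here do not give the hour of tissue collection.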
